A study of Homo sapiens with 4 samples.

Results

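Genes of cholesterol and fatty acid synthesis were measured in Z138 cells. Z138 is an established human line of mantle cell lymphoma, a cancer of B cells that usually expresses the transcription factor SOX11. The cells carried stable lentiviral short hairpin RNAs, and their total RNA was hybridised to 4 Affymetrix arrays (U133 Plus 2.0). The shSOX11 group was made of 2 arrays of cells with hairpins against SOX11 (constructs shSOX11.1 and shSOX11.3) and the shControl group of 2 arrays of cells with scrambled hairpins (constructs shControl.1 and shControl.2). Each array stands for 1 hairpin construct, no further treatment is named, and the labels do not say whether any construct was grown in separate cultures, so the p-values cover only the spread among these 4 samples. The gene set was a list of 37 genes of sterol synthesis, its control by sterol regulatory element binding proteins (SREBPs), and fatty acid synthesis and desaturation. A gene was taken where a probe set carried its symbol alone in the platform annotation, and was represented by the brightest of its probe sets (mean log2 signal over the 4 arrays). This held for 33 of the 37 genes, among 19775 genes so covered on the array. CYP51A1 and FADS1 had probe sets with several symbols only, and FDFT1 and ACSL3 were not analysed here. MVD, mevalonate diphosphate decarboxylase, was under the signal threshold of 24.83 (the median of all values) on each of the 4 arrays and was not tested. The other 32 genes were above that threshold on all 4 arrays and were tested among 11938 genes.

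Cells make cholesterol from acetyl-CoA through mevalonate, squalene and lanosterol, and fatty acids from the same acetyl-CoA. SREBPs are membrane-bound transcription factors that the escort protein SCAP carries from the endoplasmic reticulum to the Golgi apparatus, where the proteases encoded by MBTPS1 and MBTPS2 release their active part. When sterols are plentiful, INSIG proteins hold SCAP in the endoplasmic reticulum, and synthesis genes are less transcribed. Oxysterols in turn activate the LXR receptors, whose targets include the sterol exporter ABCA1 and the ubiquitin ligase MYLIP. Dividing lymphoma cells need both kinds of lipid for new membranes.

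The targeted gene was measured first. SOX11 had a signal of 335 (shSOX11.1) and 339 (shSOX11.3), against 797 on shControl.1 and 787 on shControl.2, 2.35-fold lower (limma adjusted p = 0.131). For beta-actin, the ratio of its 3′ to its 5′ control probe set was 7.29 and 5.31 on the shSOX11 arrays and 11.6 on both shControl arrays. The same ratio for GAPDH was 1.01 and 1.03 on the shSOX11 arrays and 0.978 and 1.06 on the shControl arrays. The part of the beta-actin ratio in the results was not tested. The 2 shSOX11 arrays lay further apart than the 2 shControl arrays, with a median absolute log2 gap over all genes of 0.297 between the shSOX11 arrays and 0.175 between the shControl arrays. Of 5 B-cell markers measured, 4 were above the threshold on all arrays (CD79A, CD79B, MS4A1 and PAX5), and the 5 summed to 8321 and 9758 on the shSOX11 arrays and 11439 and 10844 on the shControl arrays. CD22, the fifth, was above the threshold on 3 arrays. Of the markers of other cell types, T and NK cell genes summed to 202 and 250.1 on the shSOX11 arrays and to 263 and 286 on the shControl arrays, with 1 of 6 (CD3G) above the threshold on all arrays. Myeloid genes summed to 52.7 and 79.5 against 70.3 and 67.2 with 0 of 5 above the threshold on all arrays, and hepatocyte and adipocyte genes to 30.01 and 37.8 against 50.8 and 47.05 with 0 of 4. The single erythroid marker HBB was at 42.8 and 34.7 on the shSOX11 arrays and 43.1 and 29.1 on the shControl arrays. Epithelial and stromal genes summed to 1129 and 953 on the shSOX11 arrays and 1123 and 1109 on the shControl arrays, with COL1A1 and KRT18 of the 6 above the threshold on all arrays and COL1A1 making up most of the sum. The part of these markers in the results was not tested.

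The lipid genes lay on both sides of the controls. Of the 32 genes tested 14 were higher (43.8%, against 41.9% of all genes) and 18 lower on the shSOX11 arrays, with a median log2 difference of -0.04, against -0.06 over all 11938 genes. With each array centred on its median, the split was 20 higher and 12 lower, where 52.7% of all genes were higher. None of the 32 passed an adjusted p of 0.05 in limma (Benjamini-Hochberg over all genes tested, two-sided), and 0% of all genes passed it. The adjusted p of the 32 genes ranged from 0.341 to 0.989. At an unadjusted limma p under 0.05 there were 6 of them, or 18.8%, where 8.38% of all genes met that limit. These 6 were INSIG1, INSIG2 and STARD4 on the higher side (9.38%, against 3.40% of all genes) and SCAP, FASN and FADS2 on the lower side (9.38%, against 4.98%). With the mean of probe sets 9 of 32 met it (28.1%, against 8.33% of all genes), with ELOVL6, LSS and SCD added. The LSS mean takes in a probe set that passed the filter only through the shControl arrays. Without a signal filter 9 of 33 met it (27.3%, against 7.36%), with EBP, ELOVL6 and the dim MVD added. The groups did not overlap in 16 genes, where 41.0% of all genes did not. The 2 shSOX11 signals were both above the 2 shControl signals in 8 genes (25%, against 16.2% of all genes) and both below them in 8 (25%, against 24.9%). With median centring these counts were 9 and 4, together 40.6% of the 32 genes, where the groups did not overlap in 40.9% of all genes. Every shSOX11 array was compared with every shControl array, which makes 4 pairs, and 1 gene was at least 1.5-fold apart in all of them (2.69% of all genes). This was FADS2, on the lower side (3.13%, against 1.93% of all genes), and 0 genes met that limit on the higher side (0.762% of all genes). Bulk signals cannot tell fewer cells with a transcript from less transcript per cell. With 2 arrays a group, the smallest two-sided p of an exact permutation test is 0.333.

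**Figure D1:**
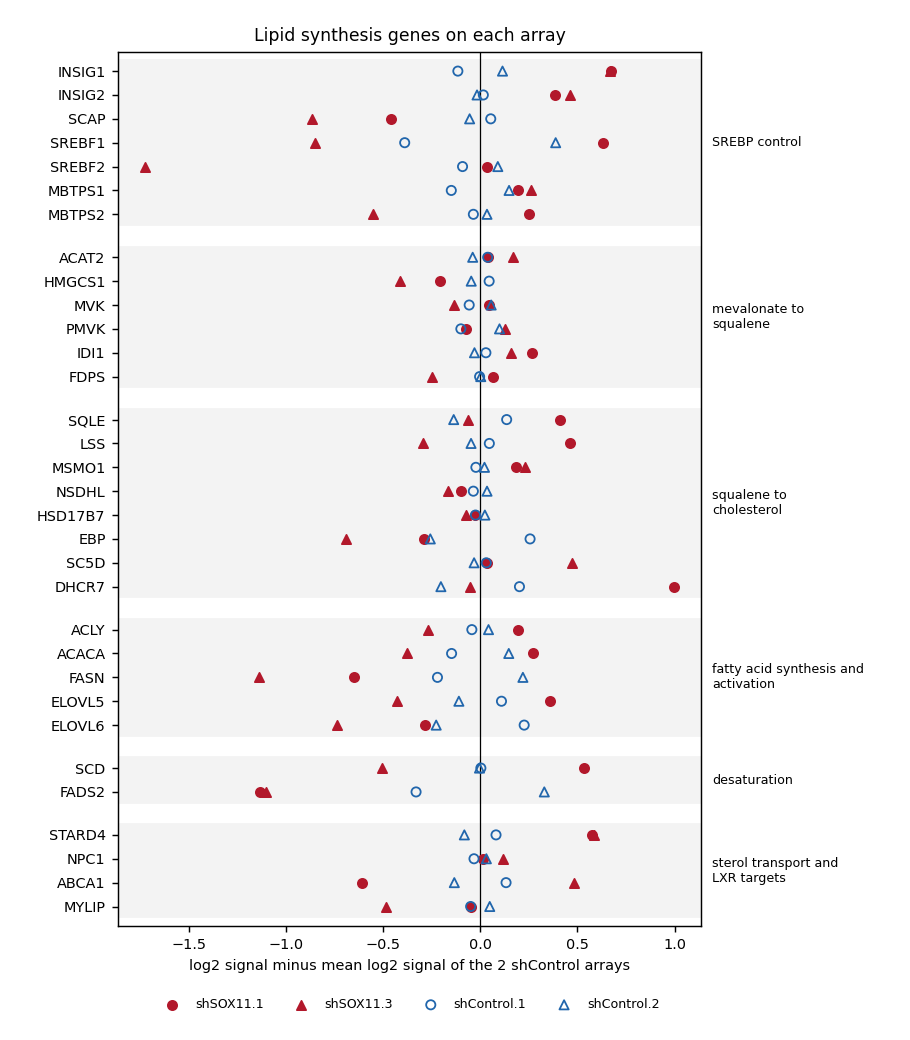
Log2 signal of each of the 32 tested genes on each array, minus the mean log2 signal of the 2 shControl arrays, grouped by role. Filled red symbols are the shSOX11 arrays and open blue symbols the shControl arrays. INSIG1, INSIG2 and STARD4 have both red symbols to the right of both blue ones, SCAP, FASN and FADS2 have both to the left, and SREBF1, SREBF2 and SCD have their red symbols far apart.

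The start-site windows of the genes on which the comparison turned are shown because SREBPs act at promoters together with the factor NF-Y. RefSeq windows (GRCh38.p14, 250 bases before to 50 after the annotated start, on the strand of the gene) were at hand for 29 of the 32 tested genes, and ACAT2, SQLE and FASN had no entry. INSIG1 lies at chr7:155297628-155297927 on the plus strand, STARD4 at chr5:111512486-111512785 on the minus strand, and SCAP at chr3:47475892-47476191 on the minus strand. FADS2 lies at chr11:61815953-61816252 and SREBF2 at chr22:41832855-41833154, both on the plus strand. SREBF2 is included as the 1 gene of the 29 with a match to the sterol regulatory element. Capitals mark matches on either strand to that element (TCACNCCAC), to the NF-Y box (CCAAT) and to the E-box (CACGTG). None of these matches overlaps another in the 5 windows.
INSIG1: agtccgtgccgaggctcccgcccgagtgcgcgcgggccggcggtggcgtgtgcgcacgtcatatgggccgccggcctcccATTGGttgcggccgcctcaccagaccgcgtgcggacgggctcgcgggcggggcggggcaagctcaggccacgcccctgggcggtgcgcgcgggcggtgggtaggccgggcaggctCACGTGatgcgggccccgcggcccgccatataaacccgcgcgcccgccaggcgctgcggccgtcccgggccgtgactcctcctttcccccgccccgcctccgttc
STARD4: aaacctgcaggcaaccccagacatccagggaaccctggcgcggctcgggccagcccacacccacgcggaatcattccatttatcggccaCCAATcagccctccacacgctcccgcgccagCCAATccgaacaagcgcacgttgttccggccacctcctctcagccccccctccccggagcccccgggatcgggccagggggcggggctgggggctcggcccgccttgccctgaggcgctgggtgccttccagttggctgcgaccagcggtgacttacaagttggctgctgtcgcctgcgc
SCAP: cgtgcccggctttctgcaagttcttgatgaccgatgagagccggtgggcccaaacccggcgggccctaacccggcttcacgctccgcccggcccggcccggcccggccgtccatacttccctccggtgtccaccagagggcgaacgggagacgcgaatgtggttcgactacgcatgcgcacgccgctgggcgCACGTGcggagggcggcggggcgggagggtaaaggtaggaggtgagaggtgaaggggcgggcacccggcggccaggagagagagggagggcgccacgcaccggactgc
FADS2: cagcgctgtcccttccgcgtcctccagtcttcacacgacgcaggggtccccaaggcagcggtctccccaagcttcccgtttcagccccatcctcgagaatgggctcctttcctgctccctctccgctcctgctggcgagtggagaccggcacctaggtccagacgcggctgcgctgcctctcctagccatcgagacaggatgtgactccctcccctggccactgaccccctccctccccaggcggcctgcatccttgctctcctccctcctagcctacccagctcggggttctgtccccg
SREBF2: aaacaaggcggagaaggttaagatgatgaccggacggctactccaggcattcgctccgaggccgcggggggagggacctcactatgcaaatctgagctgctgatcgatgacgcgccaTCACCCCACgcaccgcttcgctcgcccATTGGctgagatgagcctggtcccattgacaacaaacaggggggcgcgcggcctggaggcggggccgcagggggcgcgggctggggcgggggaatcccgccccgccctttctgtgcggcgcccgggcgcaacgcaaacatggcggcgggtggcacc
INSIG1 has 1 NF-Y box on the opposite strand at -170 to -166 and 1 E-box at -55 to -50. STARD4 has 2 NF-Y boxes, at -161 to -157 and -130 to -126, SCAP 1 E-box at -58 to -53, and FADS2 no match to any of the 3 motifs. SREBF2 has the sterol regulatory element at -133 to -125 and an NF-Y box on the opposite strand at -106 to -102.

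Over the 29 windows, the sterol regulatory element was matched in 1 (3.45%), against 1.13% of all 35116 windows of the table, which include those of non-coding genes. The NF-Y box was matched in 17 (58.6%), against 34.6% of all windows, and the E-box in 6 (20.7%), against 7.26%. The GC box (GGGCGG, not marked above) was matched in 24 (82.8%), against 44.95%. Base composition differed too, with a median GC content of 67.3% in the 29 windows and 58.7% in all windows. NF-Y boxes were most frequent in MVK and NSDHL, with 5 each, and in MSMO1, with 4. Within NSDHL 2 of these matches, on opposite strands, overlap. These matches describe letters in a window and say nothing of binding.

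**Figure D2:**
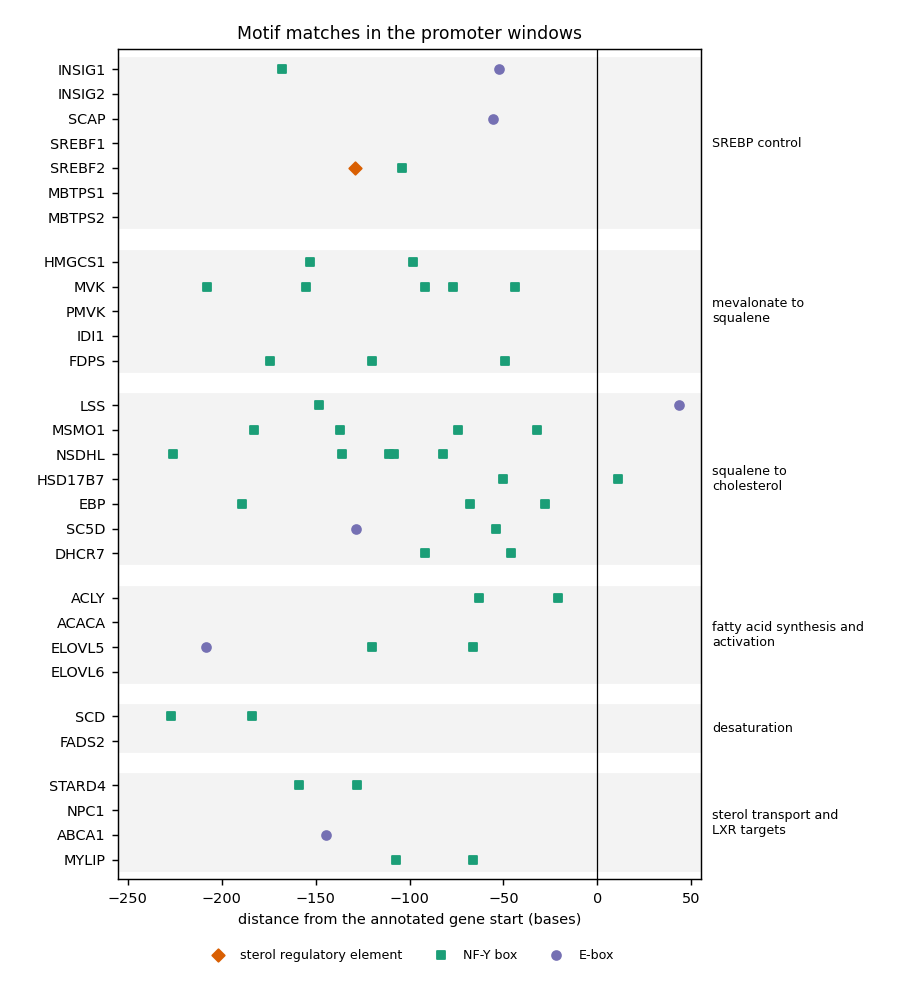
Positions of motif matches on either strand in the promoter windows of the 29 genes with an entry, by distance from the annotated gene start in bases. Squares are NF-Y boxes, circles E-boxes and the diamond the sterol regulatory element, found in SREBF2. Among the genes with no match are FADS2, INSIG2 and the protease genes MBTPS1 and MBTPS2.

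In the SREBP control genes the anchors INSIG1 and INSIG2 were higher and the escort SCAP was lower on both shSOX11 arrays. INSIG1, the sterol-regulated anchor protein and itself an SREBP target, had a signal of 1441 with hairpin shSOX11.1 and 1433 with shSOX11.3, against 833 on shControl.1 and 977 on shControl.2. Both shSOX11 arrays stood above both shControl arrays and nearly level with each other. The difference was 1.59-fold, with mean log2 signals of 10.49 ± 0.01 in shSOX11 and 9.82 ± 0.16 in shControl cells (SD, n = 2 each), a log2 difference of 0.67 (SE 0.15) and a limma adjusted p of 0.341. INSIG1 is measured by 2 further probe sets, and both were higher as well. At one of them the signal was 628 and 639 on the shSOX11 arrays and 281 and 261 on the shControl arrays, 2.34-fold higher, and at the other 354 and 252 against 182 and 186, 1.62-fold higher. Fitted among all 28202 probe sets past the filter, the 3 had limma adjusted p of 0.412, 0.245 and 0.513.

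INSIG2, the second anchor protein, had 219 and 231 on the shSOX11 arrays and 169 and 165 on the shControl arrays. The groups did not overlap, and the difference was 1.34-fold (log2 difference 0.43, SE 0.18, limma adjusted p = 0.587). Its unadjusted limma p was 0.044, and it missed 0.05 with quantile normalization (0.055), with 32 added to every signal (0.052) and with the signal filter at the 35th (0.051) or 65th percentile (0.052), and also in limma without the trend, in limma's robust fit, without shSOX11.3 and without either shControl array. SCAP, the sterol-sensing escort protein, had 234 and 177 on the shSOX11 arrays, both below the 335 and 310.4 on the shControl arrays. It was 1.58-fold lower (log2 difference -0.66, SE 0.20, limma adjusted p = 0.446). INSIG2 and SCAP are each measured by 1 probe set with a single symbol, so no second probe set bears on them.

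The genes of the transcription factors themselves did not separate the groups. SREBF2, whose product mainly drives sterol synthesis, had 139 on shSOX11.1, within the range of the shControl arrays (127 and 144), and 40.9 on shSOX11.3, below every other array. Its log2 difference of -0.84 (SE 0.49, limma adjusted p = 0.647) therefore came from 1 array, since the log2 difference from the shControl mean was 0.04 for shSOX11.1 and -1.73 for shSOX11.3. The second SREBF2 probe set had 100.02 and 60.9 on the shSOX11 arrays and 113 and 95.9 on the shControl arrays, and the third 108 and 64.4 against 64.6 and 108. All 3 gave their lowest value on shSOX11.3, at the third by a margin of only 64.4 against 64.6. SREBF1, whose product mainly drives fatty acid synthesis, had 310 (shSOX11.1) and 111 (shSOX11.3), against 153 and 261 on the shControl arrays, so that each group spanned a wide range (log2 difference -0.11, SE 0.45, limma adjusted p = 0.951). The site-1 protease gene MBTPS1 had 338 and 354 on the shSOX11 arrays and 266 and 327 on the shControl arrays (log2 difference 0.23, SE 0.18). The site-2 protease gene MBTPS2 had 763 and 437 on the shSOX11 arrays, on either side of the 624 and 655 on the shControl arrays.

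**Figure D3:**
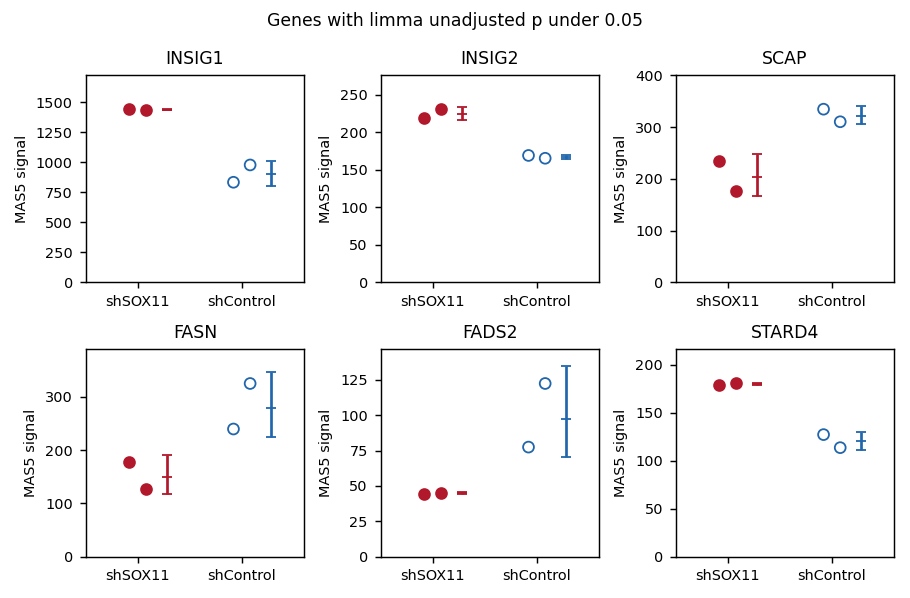
MAS5 signal on each array for the 6 genes with an unadjusted limma p under 0.05. Filled red points are the shSOX11 arrays and open blue points the shControl arrays, and the bar beside each pair gives the mean and SD taken on the log2 scale (n = 2). INSIG1, INSIG2 and STARD4 are higher and SCAP, FASN and FADS2 lower on both shSOX11 arrays. On the log2 scale FADS2 and FASN have the widest shControl pairs of the 6, with SDs of 0.47 and 0.31.

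The enzymes from acetyl-CoA units to squalene lay close to the controls, with log2 differences between -0.31 and 0.21 over the 6 genes tested, a median of -0.01 and 0 under an unadjusted limma p of 0.05. HMGCS1, which makes the HMG-CoA that enters the mevalonate pathway, had 251 and 217 on the shSOX11 arrays, below the 298 and 280 on the shControl arrays (1.24-fold lower, log2 difference -0.31, SE 0.18, limma adjusted p = 0.647). IDI1, isopentenyl diphosphate isomerase, had 1164 and 1081 on the shSOX11 arrays, above the 988 and 949 on the shControl arrays (log2 difference 0.21, SE 0.14). The IDI1 value comes from a probe set of the kind marked for possible cross-hybridization, and its probe sets disagreed. The next brightest gave 0.23 and the other 2 gave -0.26 and -0.71 on the log2 scale. ACAT2, which joins acetyl-CoA units, had 427 and 466 on the shSOX11 arrays and 426 and 404 on the shControl arrays, not overlapping but separated on shSOX11.1 by less than 1 unit of signal (limma adjusted p = 0.856). The kinases MVK and PMVK had log2 differences of -0.04 and 0.03, and farnesyl diphosphate synthase, FDPS, had -0.09. MVD, at 2.14 and 1.53 on the shSOX11 arrays and 9.76 and 8.14 on the shControl arrays, was dim throughout, and no fold is given.

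From squalene to cholesterol 5 of 8 genes were higher and 3 lower in the mean, with a median log2 difference of 0.13 and 0 under an unadjusted limma p of 0.05. EBP, the sterol isomerase, had 497 and 376 on the shSOX11 arrays, below the 725 and 508 on the shControl arrays (1.40-fold lower, log2 difference -0.49, SE 0.22, limma adjusted p = 0.591). All 4 EBP probe sets were lower in the mean, with log2 differences of -0.49, -0.38, -0.26 and -0.32. At the second of them, too, the groups did not overlap, with 423 and 393 against 492 and 569. DHCR7, which reduces 7-dehydrocholesterol to cholesterol, had the largest positive value of this branch, 0.47 on the log2 scale (SE 0.39), from 107 (shSOX11.1) and 51.5 (shSOX11.3) against 61.5 and 46.5 on the shControl arrays. Only shSOX11.1 stood apart, and the other DHCR7 probe set lay at -0.18.

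The remaining sterol enzymes of that branch differed by at most 0.25 on the log2 scale. MSMO1, the sterol C4-methyl oxidase, had 577 and 596 on the shSOX11 arrays, above the 501 and 516 on the shControl arrays (log2 difference 0.21, SE 0.15, limma adjusted p = 0.698). SC5D, the sterol C5-desaturase, had 98.2 and 133 against 97.9 and 93.8, so that only shSOX11.3 stood clear of the controls. The dehydrogenase NSDHL had 240 and 229 on the shSOX11 arrays, below the 250.5 and 263 on the shControl arrays (log2 difference -0.13), and HSD17B7 had 585 and 566 against 586 and 606 (-0.05). The squalene epoxidase SQLE (570.1 and 410.4 against 471 and 390) and the cyclase LSS (437 and 258 against 328 and 307) overlapped between the groups, and in each the value on shSOX11.1 was the highest of the 4.

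In fatty acid synthesis all 5 tested genes were lower in the mean, with a median log2 difference of -0.05 beside -0.06 over all genes, and 3 of the 5 lay between -0.05 and -0.03. These 3 (ACACA, ACLY and ELOVL5) were higher with each array centred on its median and also without shSOX11.3, which left FASN and ELOVL6 as the 2 of 5 that were lower. FASN, the fatty acid synthase, had 178 and 127 on the shSOX11 arrays, both below the 239 and 325 on the shControl arrays. It was 1.86-fold lower, with mean log2 signals of 7.23 ± 0.34 in shSOX11 and 8.12 ± 0.31 in shControl cells (SD, n = 2 each), a log2 difference of -0.89 (SE 0.24) and a limma adjusted p of 0.394. The second FASN probe set, mostly under the threshold, had 20.9 and 5.89 against 25.4 and 22.9. ELOVL6, which lengthens saturated and monounsaturated fatty acids, had 316 and 231 on the shSOX11 arrays and 450 and 329 on the shControl arrays. Its groups did not overlap, but shSOX11.1 and shControl.2 were close (1.42-fold lower, log2 difference -0.51, SE 0.23, limma adjusted p = 0.587). All 3 ELOVL6 probe sets were lower on both shSOX11 arrays, the others by 0.22 and 0.80 on the log2 scale.

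The remaining tested genes of that list, ACLY, ACACA and ELOVL5, showed no separation. ACLY, which makes cytosolic acetyl-CoA from citrate, had 2577 and 1870 on the shSOX11 arrays, on either side of the 2189 and 2323 on the shControl arrays. ACACA, which makes malonyl-CoA, had 429 and 274 around 321 and 393, and ELOVL5, which lengthens polyunsaturated fatty acids, had 1659 and 959 around 1393 and 1196. In all 3 of these, shSOX11.1 was the highest array and shSOX11.3 the lowest. ACLY had probe sets on both sides, with one at 0.42 and one at -0.16 on the log2 scale.

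The desaturases differed from each other. FADS2, the delta-6 desaturase that opens the synthesis of long polyunsaturated fatty acids, had 44.4 and 45.3 on the shSOX11 arrays, below the 77.4 and 122 on the shControl arrays. It was 2.17-fold lower, with mean log2 signals of 5.49 ± 0.02 in shSOX11 and 6.60 ± 0.47 in shControl cells (SD, n = 2 each), a log2 difference of -1.12 (SE 0.32) and a limma adjusted p of 0.416. With 32 added to every signal before the logarithm, it no longer stood 1.5-fold apart on all pairs. The second FADS2 probe set was under the threshold on all arrays. SCD, stearoyl-CoA desaturase, had 2293 on shSOX11.1 and 1115 on shSOX11.3, on either side of 1587 and 1579 on the shControl arrays. Its log2 difference was 0.01 (SE 0.29, limma adjusted p = 0.989), made of 0.53 for shSOX11.1 and -0.51 for shSOX11.3. A dimmer SCD probe set had 126 and 124 on the shSOX11 arrays, above the 107 and 68.4 on the shControl arrays. The faintest SCD probe set past the filter had 47.2 and 36.3 against 5.65 and 36.8, and its groups overlapped. With the mean of the log2 signals of these 3 probe sets in place of the brightest one, the SCD log2 difference was 0.69 (limma adjusted p = 0.589). SCD then met the unadjusted limit.

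Of the 4 sterol transport and LXR target genes, 1 separated the groups (25%, against 41.0% of all genes). STARD4, a carrier of cholesterol between membranes and an SREBP target, had 179 and 180.4 on the shSOX11 arrays, above the 127 and 114 on the shControl arrays. It was 1.49-fold higher (log2 difference 0.58, SE 0.20, limma adjusted p = 0.510), by nearly the same amount on each shSOX11 array. NPC1, which exports cholesterol from lysosomes, had 304 and 327 on the shSOX11 arrays and 295 and 308 on the shControl arrays. ABCA1, the cholesterol exporter, had 287 on shSOX11.1 and 613 on shSOX11.3, on either side of 480.4 and 399 on the shControl arrays, and its second probe set had the same order with 202 and 404 around 251 and 305. MYLIP, the ligase that marks lipoprotein receptors for degradation, had 481 and 355 on the shSOX11 arrays and 480.1 and 514 on the shControl arrays (log2 difference -0.27, SE 0.19). Its other 4 probe sets past the filter lay between -0.06 and 0.12.

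**Figure D4:**
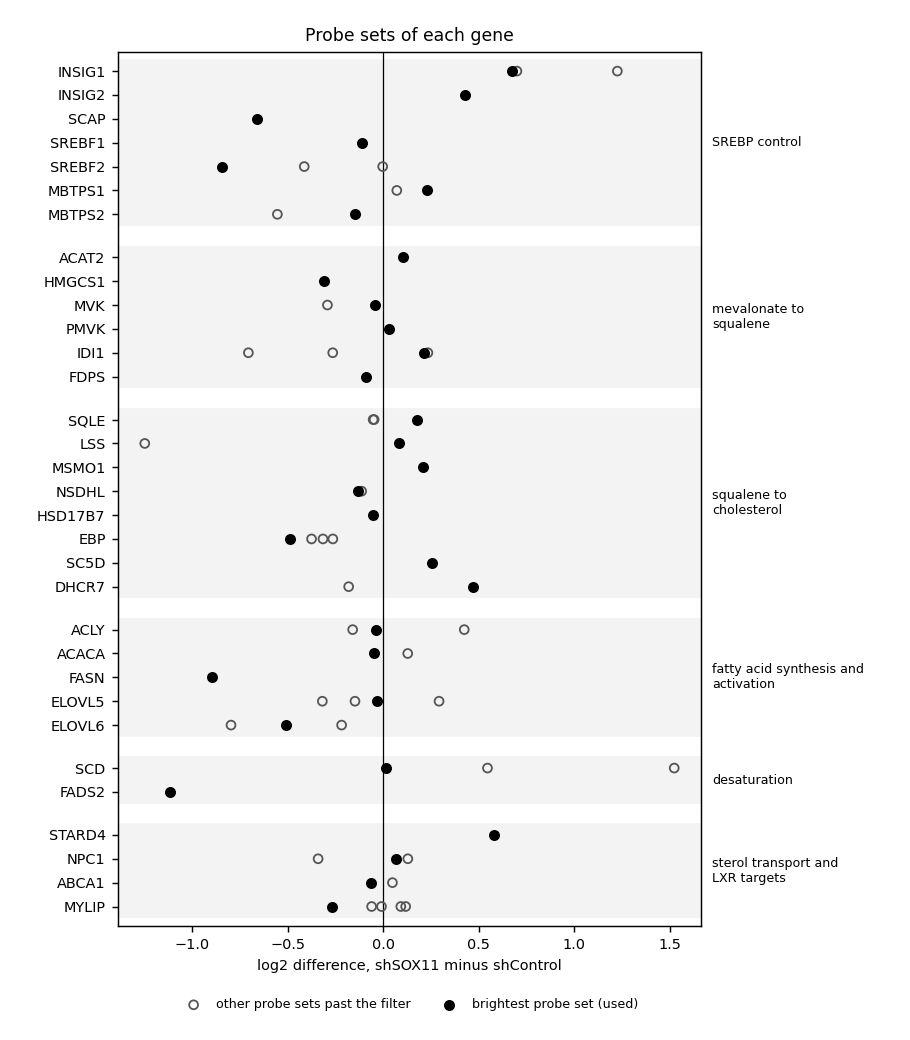
Log2 difference (shSOX11 minus shControl) at each probe set past the filter for the 32 tested genes. Filled points are the brightest probe sets, used for each gene, and open points the others. The 3 INSIG1 probe sets and the 4 EBP probe sets lie on one side, whereas those of IDI1, LSS and ACLY lie on both. The SCD points spread widely but all lie on the higher side. The low LSS point passed the filter only through the shControl arrays.

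Across the genes, 67 of 83 probe sets passed the filter. More than 1 passed in 19 genes, and in 9 of these all had one direction, among them INSIG1 (3 probe sets), EBP (4) and ELOVL6 (3). MBTPS2 counts among the 9 only through a dim probe set with 18.8 and 21.6 on the shSOX11 arrays and 26.8 and 32.7 on the shControl arrays. That probe set passed the filter only through the shControl arrays, which fixed its sign. In the other 10 genes probe sets pointed both ways. At LSS the brightest probe set was at 0.08 on the log2 scale and a second, near the threshold, was at -1.25. That second one had 7.19 and 18.2 on the shSOX11 arrays and 26.7 and 27.6 on the shControl arrays. It passed the filter only through the shControl arrays, which fixed its sign, and LSS counts among the 10 genes only through it.

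The 2 hairpins against SOX11 gave unlike levels for many of these genes. SOX11 itself was level on both arrays at its brightest probe set only. Its other probe sets had 203 (shSOX11.1) and 135 (shSOX11.3), and 121 (shSOX11.1) and 164 (shSOX11.3). The shControl arrays had 439 and 482, and 296 and 327, at these probe sets. The absolute log2 gap between shSOX11.1 and shSOX11.3 had a median of 0.403 over the 32 genes, and that between shControl.1 and shControl.2 a median of 0.111. The shSOX11 gap was the wider one in 25 of 32 genes (78.1%), where the share over all genes was 63.5%. In 22 of the 32 (68.8%, against 58.8% of all genes) the signal was higher on shSOX11.1 than on shSOX11.3. In 12 genes (37.5%, against 23.7% of all genes) shSOX11.1 lay above the shControl mean and shSOX11.3 below it. These were SREBF1, SREBF2, MBTPS2, MVK, FDPS, SQLE, LSS, DHCR7, ACLY, ACACA, ELOVL5 and SCD. ABCA1 and PMVK went the opposite way. The largest gaps belonged to SREBF2 (-1.76 on the log2 scale, shSOX11.3 minus shSOX11.1), SREBF1 (-1.48), ABCA1 (1.09), DHCR7 (-1.05) and SCD (-1.04). The matching gaps of shControl.2 minus shControl.1 were 0.18, 0.78, -0.27, -0.40 and -0.01. With 1 array per hairpin the gap has no replicate check and no test, and hairpin, culture and array cannot be told apart.

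**Figure D5:**
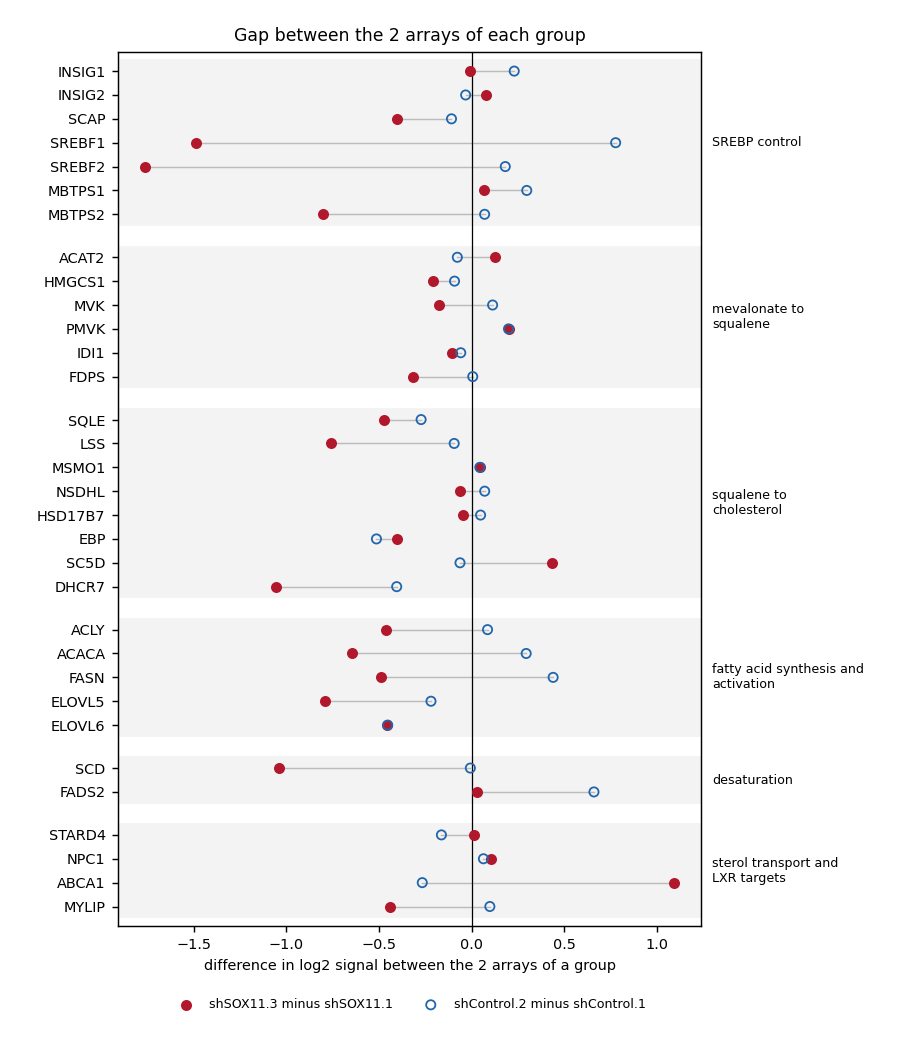
Difference in log2 signal between the 2 arrays of a group for each of the 32 tested genes. Filled red points are shSOX11.3 minus shSOX11.1 and open blue points shControl.2 minus shControl.1. The red points reach -1.76 at SREBF2 and 1.09 at ABCA1, whereas INSIG1, STARD4 and FADS2 have red points near 0.

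Leaving out an array bore on the counts. Without shSOX11.1, 6 of the 32 genes passed an adjusted limma p of 0.05 (INSIG1 higher, and FASN, MBTPS2, SCAP, SCD and SREBF2 lower), among 953 of all genes. Without shSOX11.3, 2 passed (INSIG1 and SCD, both higher), among 211 of all genes, so SCD passed in opposite directions. Without either shControl array 0 passed, as over all genes. In such fits the lone array is assumed to vary like the pair of the other group, and the shControl pair was the closer one, so these calls rest on the spread of the controls. The INSIG1 log2 difference was 0.67 without shSOX11.1, 0.68 without shSOX11.3, 0.56 without shControl.1 and 0.79 without shControl.2. At an unadjusted limma p under 0.05 the count was 18 without shSOX11.1, 12 without shSOX11.3, 2 without shControl.1 and 4 without shControl.2. The shares were 56.3%, 37.5%, 6.25% and 12.5% of the 32 genes, where 24.9%, 15.4%, 2.84% and 3.05% of all genes met that limit in the same 4 fits.

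Other genes of these pathways, written down as a list of 63, were summarised the same way. Of them 50 had a probe set with 1 symbol and 43 were tested, 20 higher and 23 lower, with a median log2 difference of -0.04. None passed an adjusted limma p of 0.05, and 6 (13.95%, against 8.38% of all genes) lay under an unadjusted 0.05. On the higher side were ERLIN1, an endoplasmic reticulum protein that binds the SREBP complex, SEC23A, a coat protein of the vesicles that leave that compartment, the acyl-CoA synthetase ACSL4 and the lysosomal acid lipase LIPA. ERLIN1 had 1166 and 1333 on the shSOX11 arrays, above the 659 and 974 on the shControl arrays (1.56-fold, log2 difference 0.64, SE 0.20, limma adjusted p = 0.471). SEC23A had 846 and 1057 against 651 and 663 (1.44-fold, limma adjusted p = 0.462), and the log2 differences of ACSL4 and LIPA were 0.46 and 0.43. On the lower side were FADS3, of the fatty acid desaturase family, and RXRB, a partner of the LXR receptors, with log2 differences of -0.58 and -0.48. None of the 43 was 1.5-fold apart on all 4 pairs. The shSOX11 gap was the wider one in 58.1% of these 43 genes, beside the 63.5% of all genes.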

How the data were processed

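Groups came from the sample titles. The authors deposited MAS5 signals, an intensity per probe set that is not on a log scale. The submitters' processing notes name Affymetrix Expression Console and MAS5, and their versions were not used here. Without 2% of values at each end, the mean deposited intensity was 150 on each array. MAS5 subtracts mismatch signals, which makes low signals noisy, and precision is limited by the number of arrays.

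Of 54675 probe sets 41091 had 1 symbol. Signals were converted to log2 with no pseudocount. Probe sets above 24.83 on at least 2 of 4 arrays were kept, then the brightest per gene. Groups were compared with limma 3.58.1 in R 4.3.3 (eBayes with an intensity trend, 8.39 degrees of freedom after moderation), with Benjamini-Hochberg adjustment over 11938 genes, after a test on simulated data. Python 3.11.15 searched the promoters.

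Values per array were set for genes under an unadjusted p of 0.05, for those whose groups do not overlap and for the 2 largest differences per role, and others were added after their values were seen. The genes, lists and tests were chosen with earlier results of these data known. Alternatives were median centring, quantile normalization, 32 added to each signal, no filter or one at the 35th or 65th percentile, the mean of probe sets, no _x_at probe sets, limma without the trend or robust, other limits, and leaving out each array.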

Additional observations from a re-analysis of the deposited data

How the results depend on the processing

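No paired analysis was possible because the groups share only 1 construct number, which names a different hairpin in each. The count of lipid genes past an adjusted limma p of 0.05 stayed at 0 under every alternative with all 4 arrays, also at 0.10, and ranged from 0 to 6 with 1 array left out. Under an unadjusted 0.05 it ranged from 2 to 18 with 1 array left out, where the count over all 11938 genes ranged from 339 to 2967. For groups not overlapping it ranged from 18 to 30, with only 2 pairs of arrays left to compare. The count of 18, without shControl.2, was 56.3% of the 32 genes, below the 65.8% of all genes (7854). The count of 30, without shSOX11.1, was 93.8%, above the 77.9% of all genes (9296). The share was 84.4% without shSOX11.3, against 74.5% of all genes (8898). Without shControl.1 it was 65.6%, against 63.9% of all genes (7624). Of genes 1.5-fold apart on all pairs there was 1 (FADS2). There were 2 (6.25%) with median centring and with the mean of probe sets (INSIG1 added), against 2.66% and 2.69% of all genes. Without a filter there were 2 (MVD added, under the threshold on all arrays), or 6.06% against 7.15% of all genes. With a pseudocount of 32 there were 0, against 0.729% of all genes. At 2-fold there were 0. At a limit of 0.32 on the log2 scale there were 6 (INSIG1, INSIG2, SCAP, FASN and STARD4 added). For these other limits no share of all genes is given here, so the counts cannot be set against it. The median log2 difference lay between -0.21 and 0.055 with 1 array left out. INSIG1 kept its direction under every alternative run, with log2 differences from 0.56 to 0.79 with 1 array left out. SOX11 lay from -1.24 to -1.23 with 1 array left out. With all 4 arrays SOX11 was at -1.15 with median centring, -1.16 with a pseudocount of 32 and -1.28 with the mean of probe sets.

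Direction was kept in 15 of the 32 genes under every alternative run, and in 350 of 383 values. With the filter at the 35th or 65th percentile or with none, the 32 genes kept the same probe sets and values. Direction could therefore not turn in that part of the 383. Small differences turned with median centring, to 0.020 for ABCA1, 0.032 for ACACA, 0.044 for ACLY, 0.049 for ELOVL5, 0.031 for HSD17B7 and 0.039 for MVK. With the mean of probe sets ACACA turned to 0.039, ACLY to 0.075, IDI1 to -0.13, LSS to -0.58 and NPC1 to -0.049. The LSS value takes in a probe set that passed the filter only through the shControl arrays. Without _x_at probe sets IDI1 turned to -0.71. With 1 array left out, log2 differences ranged from -0.61 to 0.48 for ABCA1, -0.37 to 0.27 for ACACA, -0.27 to 0.19 for ACLY, -0.054 to 1.00 for DHCR7, -0.43 to 0.36 for ELOVL5, -0.25 to 0.066 for FDPS, -0.30 to 0.46 for LSS, -0.55 to 0.25 for MBTPS2, -0.13 to 0.045 for MVK, -0.071 to 0.13 for PMVK, -0.51 to 0.53 for SCD, -0.061 to 0.41 for SQLE, -0.85 to 0.63 for SREBF1 and -1.73 to 0.037 for SREBF2. The cause was not tested.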
